A study of Mus musculus with 8 samples.

Results

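Acute-phase proteins are plasma proteins that the liver makes in larger amounts during infection or injury. Cytokines of the IL-6 family reach the hepatocyte through a receptor that signals to the transcription factor STAT3, and IL-1 and TNF act through NF-kB and C/EBP factors, so that many acute-phase genes are switched on together. Serum amyloid A, the product of the *Saa* genes, and lipocalin 2 are known for very large responses, whereas haptoglobin and hemopexin are abundant in plasma at rest. The 10 genes described here are *Saa1*, *Saa2*, *Saa3*, *Saa4*, *Orm1*, *Orm2*, *Hp*, *Hpx*, *Lcn2* and *Apcs*. They were chosen by name as acute-phase genes, and not by their signals, out of 22907 genes named on the array. Earlier results of these data were known at that choice. All 10 were found, with 1 probe for each of 9 genes and a pair of probes for *Lcn2*.

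RNA was taken from the liver of male C57BL/6 mice aged 10 weeks, of which 4 were *Agpat3* WT and 4 were *Agpat3* KO, the KO being a constitutive loss of the gene in the whole body. AGPAT3 is the acyltransferase that places docosahexaenoic acid (DHA) into phospholipids, and the comparison asks which liver transcripts differ when it is missing. No treatment was given to either group in the labels, and neither group was exposed to an inflammatory agent according to them. Each mouse had 1 one-color Agilent array, and all 8 arrays were on 1 slide. Row 1 of the slide carried the WT arrays and row 2 the KO arrays, so row and genotype cannot be told apart. Values below are log2 signals after the 75th percentile of each array was set to 0, and the level of 1 gene cannot be set against that of another. The mice are called WT 1 to WT 4 and KO 1 to KO 4, by the replicate number in the labels. At its brighter probe *Agpat3* gave 5.65, 5.66, 5.80 and 5.88 in WT 1 to WT 4 and -0.48, 0.02, -0.58 and -0.47 in KO 1 to KO 4, a log2 fold change (KO minus WT) of -6.12 with a standard error (SE) of 0.14 (limma adjusted p = 4.47e-07). The genotype labels therefore match the targeted gene on every array. The liver label was checked on 13 hepatocyte markers, all of which were measured above background, with albumin (*Alb*) at 10.54 ± 0.09 in WT and 10.53 ± 0.07 in KO (SD, n = 4 each).

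None of the 10 acute-phase genes was called different between the genotypes, and none had WT and KO mice that did not overlap. Calls required more than a 1.5-fold difference together with an adjusted p (limma, Benjamini-Hochberg over 29069 probes) below 0.2. By this rule 1.76% of the 14064 genes tested were called, 1.01% higher and 0.754% lower in KO, and 1.67% of the probes were called, 0.939% higher and 0.726% lower. At an unadjusted p under 0.05 the count among the acute-phase genes was 0 of 10, against 13.9% of all genes tested. The groups did not overlap for 9.66% of all genes and 8.8% of all probes. In mean, 9 of the 10 genes were lower in KO and 1, *Apcs*, was higher, while 57.9% of all genes tested were lower in mean. The median log2 fold change was -0.23 over the 10 genes and -0.03 over all genes. The 10 genes differed in their spread between mice of the same genotype. *Saa1*, *Saa2* and *Lcn2* varied 3.79-fold to 8.08-fold within a genotype, and the same mice were high for all of them.

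The upstream sequences of the genes that varied most, *Saa1*, *Saa2* and *Lcn2*, are shown together with those of *Orm2*, whose signal rose with that of *Saa2* over the mice, and *Apcs*, which had the weakest pooled correlation with it. Each is the run of 250 bases before the start that the table uses for the gene, 5′ to 3′ on the strand of the gene, from the RefSeq promoter table of GRCm38.p6. The array files name a different build, and these positions belong to the sequences and not to the probes. The windows are chr7:46742981-46743230 (minus strand) for *Saa1*, chr7:46751583-46751832 (plus strand) for *Saa2*, chr2:32387740-32387989 (minus strand) for *Lcn2*, chr4:63362199-63362448 (plus strand) for *Orm2* and chr1:172895055-172895304 (minus strand) for *Apcs*. Capitals mark matches on either strand to the letters TTNNGCAA (C/EBP element) or TTCNNNGAA (STAT3 element), where N is any base, and matches to TATAAA, which is known as a TATA box. An NF-kB element, GGG and TTTCC with 2 bases between them, was searched in the same way.
Saa1: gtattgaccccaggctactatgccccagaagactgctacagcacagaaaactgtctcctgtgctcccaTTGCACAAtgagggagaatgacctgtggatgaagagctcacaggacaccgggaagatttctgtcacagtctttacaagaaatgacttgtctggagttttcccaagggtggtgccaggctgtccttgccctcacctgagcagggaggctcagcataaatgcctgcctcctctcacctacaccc
Saa2: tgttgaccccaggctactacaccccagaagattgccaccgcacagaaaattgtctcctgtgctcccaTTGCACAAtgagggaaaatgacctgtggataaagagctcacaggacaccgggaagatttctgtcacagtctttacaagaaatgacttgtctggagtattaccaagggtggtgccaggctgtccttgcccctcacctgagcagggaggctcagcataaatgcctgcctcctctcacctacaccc
Lcn2: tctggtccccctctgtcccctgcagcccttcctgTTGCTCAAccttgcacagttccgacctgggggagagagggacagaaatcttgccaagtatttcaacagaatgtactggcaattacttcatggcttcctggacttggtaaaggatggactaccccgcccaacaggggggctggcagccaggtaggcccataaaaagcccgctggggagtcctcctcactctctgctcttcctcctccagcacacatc
Orm2: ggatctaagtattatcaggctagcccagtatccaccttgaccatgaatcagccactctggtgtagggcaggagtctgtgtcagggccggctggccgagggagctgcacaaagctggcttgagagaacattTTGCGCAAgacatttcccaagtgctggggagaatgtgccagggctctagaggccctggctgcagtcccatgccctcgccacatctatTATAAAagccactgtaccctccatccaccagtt
Apcs: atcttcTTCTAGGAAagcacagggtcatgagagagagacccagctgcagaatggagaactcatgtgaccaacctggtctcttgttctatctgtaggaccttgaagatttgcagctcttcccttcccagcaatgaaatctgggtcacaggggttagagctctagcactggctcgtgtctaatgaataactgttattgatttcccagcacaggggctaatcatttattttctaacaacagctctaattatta

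The *Saa1* and *Saa2* windows were 94.8% identical over an alignment of 251 positions, and both held the same C/EBP letters, TTGCACAA. The other pairs among the 4 *Saa* windows were 46.8% to 52.4% identical. A match to the C/EBP letters lay in 7 of the 8 windows in the table, those of *Saa1*, *Saa2*, *Saa3*, *Saa4*, *Orm2*, *Hpx* and *Lcn2*, and in 9.56% of 32851 promoter windows of the same length. In *Orm2* the 8 letters TTGCGCAA read the same on both strands, and a TATA box followed nearer to the start. *Apcs* held the STAT3 letters, TTCTAGGAA, which 7.02% of all windows hold, and no C/EBP letters. TATAAA was found in 12.4% of all windows, and the NF-kB letters were found in 1.41% of all windows and in none of the 8. The windows of *Orm1* and *Hp* were not analysed here. A match describes the letters in the window and does not show that a factor binds there.

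*Saa1* and *Saa2* encode the acute-phase serum amyloid A proteins, which travel in plasma on high-density lipoprotein. *Saa2* gave 5.69, 6.99, 6.52 and 8.70 in WT 1 to WT 4 and 5.36, 7.63, 5.53 and 5.91 in KO 1 to KO 4. WT 4 was the highest of the 8 mice, KO 2 came next, above the other WT mice, and of the other KO mice KO 4 lay just above WT 1, while KO 1 and KO 3 lay below every WT mouse. The means were 6.97 ± 1.27 in WT and 6.11 ± 1.04 in KO (SD, n = 4 each), and the log2 fold change was -0.87 (SE 0.70, 95% confidence interval, CI, -2.47 to 0.74, limma adjusted p = 0.654). *Saa1* gave 5.26, 6.35, 5.84 and 8.08 in WT 1 to WT 4 and 5.004, 7.06, 4.91 and 5.35 in KO 1 to KO 4, with the same mice at the top. Its log2 fold change was -0.80 (SE 0.67, 95% CI -2.34 to 0.73, limma adjusted p = 0.666). As a ratio of geometric means, *Saa1* in KO was 0.573 of WT, with an interval from 0.198 to 1.66. Neither a fall by more than 1.5-fold nor a rise by that much lay outside this interval. Exact permutation tests over the 70 assignments of 4 and 4 mice gave p = 0.343 for each gene (two-sided, smallest possible 0.0286). Without WT 4 the log2 fold change shrank to -0.24 for *Saa1* and -0.29 for *Saa2*, and without KO 2 it grew to -1.30 and -1.37. The probes of these closely related transcripts may hybridize to both, which was not tested. Older annotation exchanged the 2 symbols, and here *Saa1* and *Saa2* follow the current RefSeq names of the transcripts on the array.

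*Lcn2* encodes lipocalin 2, which binds bacterial siderophores and so withholds iron. Its brighter probe gave -0.16, 1.68, 1.48 and 2.43 in WT 1 to WT 4 and -0.25, 1.67, 0.56 and 0.24 in KO 1 to KO 4. WT 4 was again the highest mouse, while WT 1 and KO 1 were the lowest of their genotypes. The log2 fold change was -0.81 (SE 0.58, 95% CI -2.14 to 0.52, limma adjusted p = 0.607). Its dimmer probe, also well above background on all 8 arrays, put the mice in much the same order and gave a log2 fold change of -0.83. Without WT 4 the change of the brighter probe was -0.45, and without WT 1 it was -1.31.

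*Saa3* and *Saa4* complete the serum amyloid A family. *Saa3*, which is known chiefly from macrophages and fat, gave 2.38, 2.15, 3.02 and 2.70 in WT 1 to WT 4 and 2.54, 2.66, 2.18 and 2.07 in KO 1 to KO 4. WT 3 was the highest mouse here, and WT 4 was second. Its log2 fold change was -0.20 (SE 0.21, 95% CI -0.67 to 0.28, limma adjusted p = 0.737). It was -0.05 without WT 3 and -0.33 without WT 2. *Saa4*, the constitutive member made at rest, gave 5.06, 5.15, 4.95 and 5.22 in WT 1 to WT 4 and 4.75, 4.92, 4.51 and 5.15 in KO 1 to KO 4. KO 4 lay among the WT mice, and the other KO mice lay below all of them. The log2 fold change of *Saa4* was -0.26 (SE 0.14, 95% CI -0.57 to 0.05, limma adjusted p = 0.465), and without KO 3 it was -0.15.

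*Orm1* and *Orm2* encode orosomucoid, or alpha-1-acid glycoprotein, a carrier of small lipophilic molecules. *Orm1* gave 8.05, 8.11, 7.86 and 8.44 in WT 1 to WT 4 and 7.82, 8.19, 7.78 and 7.95 in KO 1 to KO 4. *Orm2* gave 6.71, 6.77, 6.60 and 7.18 in WT and 6.63, 6.95, 6.58 and 6.70 in KO. As for *Saa2*, WT 4 was highest and KO 2 second for both genes, over a much narrower range of 1.59-fold for *Orm1* and 1.51-fold for *Orm2* over the 8 mice. The log2 fold changes were -0.18 for *Orm1* (95% CI -0.50 to 0.14, limma adjusted p = 0.632) and -0.10 for *Orm2* (95% CI -0.42 to 0.21, adjusted p = 0.802). Without WT 4 the change of *Orm1* was -0.08 and that of *Orm2* was 0.018, the latter the only change of sign among the 10 genes over all alternative settings. The related gene *Orm3*, not among the 10, had a far wider range, with -1.12, -0.36, -0.50 and 1.13 in WT 1 to WT 4 and -2.11, 0.38, -0.77 and -0.13 in KO 1 to KO 4, again with WT 4 and KO 2 highest.

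Haptoglobin (*Hp*) binds free hemoglobin and hemopexin (*Hpx*) binds free heme. *Hp* gave 9.67, 9.60, 9.50 and 9.90 in WT 1 to WT 4 and 9.60, 9.46, 9.23 and 9.36 in KO 1 to KO 4. All 4 KO mice lay below the WT mean, and KO 1 overlapped the WT range. Among the 10 genes it had the lowest p, with a size under 1.5-fold, a log2 fold change of -0.25 (SE 0.11, 95% CI -0.51 to 0.005, limma p = 0.0533, adjusted 0.385) and an exact permutation p of 0.0857. *Hpx* gave 9.64, 9.72, 9.48 and 10.01 in WT 1 to WT 4 and 9.60, 9.55, 9.46 and 9.48 in KO 1 to KO 4, a log2 fold change of -0.19 (SE 0.11, 95% CI -0.45 to 0.07, limma adjusted p = 0.527). The KO mice were close together, spanning 0.14 on the log2 scale, and lay in or just below the lower part of the WT range. The change of *Hpx* was -0.09 without WT 4 and -0.08 under quantile normalization, and that of *Hp* was -0.14 under quantile normalization.

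*Apcs* encodes serum amyloid P, the main acute-phase pentraxin of mice. It gave 2.76, 3.09, 2.63 and 3.17 in WT 1 to WT 4 and 3.16, 2.89, 3.23 and 2.93 in KO 1 to KO 4. The groups overlapped throughout, and the log2 fold change was 0.14 (SE 0.14, 95% CI -0.19 to 0.47, limma adjusted p = 0.729). It was 0.05 without WT 3 and 0.23 without WT 4. For 6 of the 10 genes, *Saa4*, *Orm1*, *Orm2*, *Hp*, *Hpx* and *Apcs*, the 95% interval lay within 1.5-fold in both directions. For *Saa1* and *Saa2* it reached beyond in both directions, and for *Saa3* and the brighter probe of *Lcn2* only toward lower signal in KO. The dimmer probe of *Lcn2* reached beyond in both directions (95% CI -2.31 to 0.66).

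**Figure D1:**
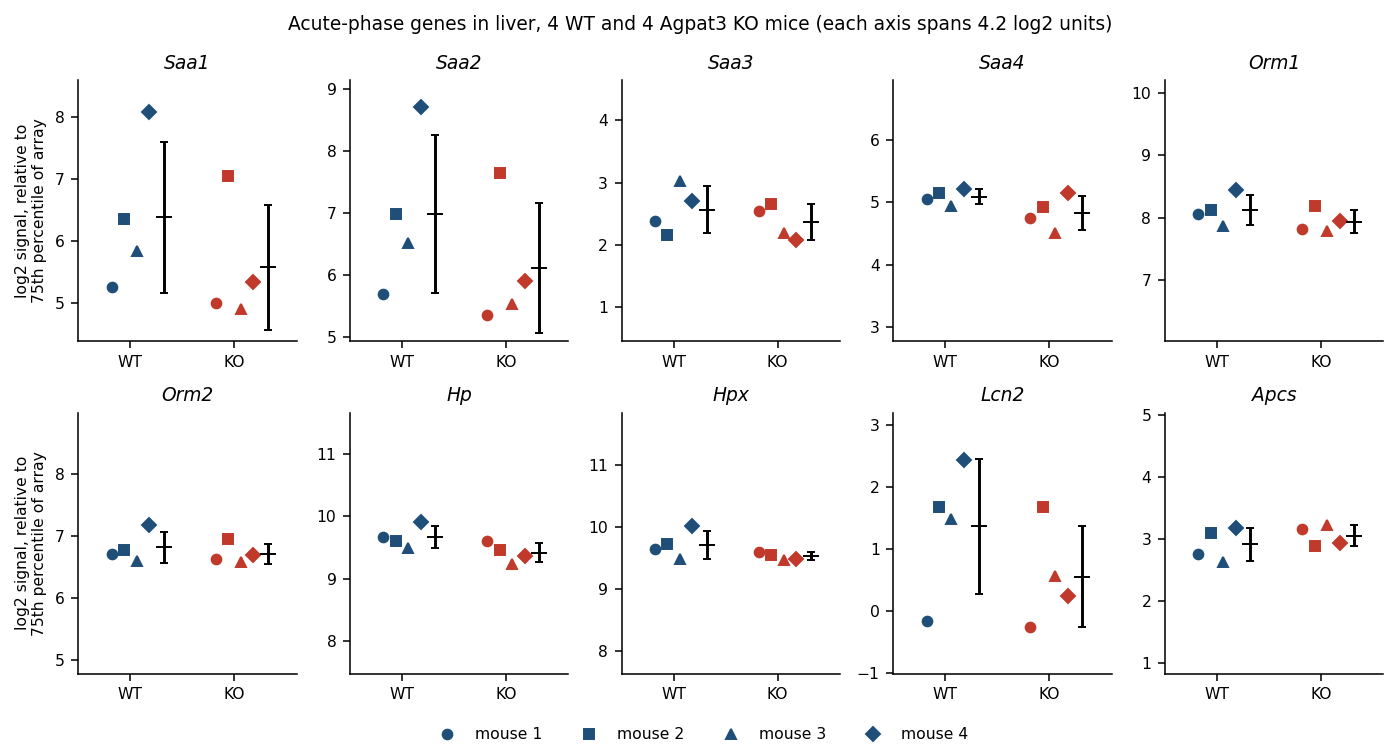
Log2 signal of each acute-phase gene (75th percentile of each array at 0) in 4 WT and 4 KO mice (1 point per mouse, shape by replicate number, bars mean ± SD). All axes span the same number of log2 units, and WT 4 and KO 2 stand above the other mice of their genotype for *Saa1* and *Saa2*.

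**Figure D2:**
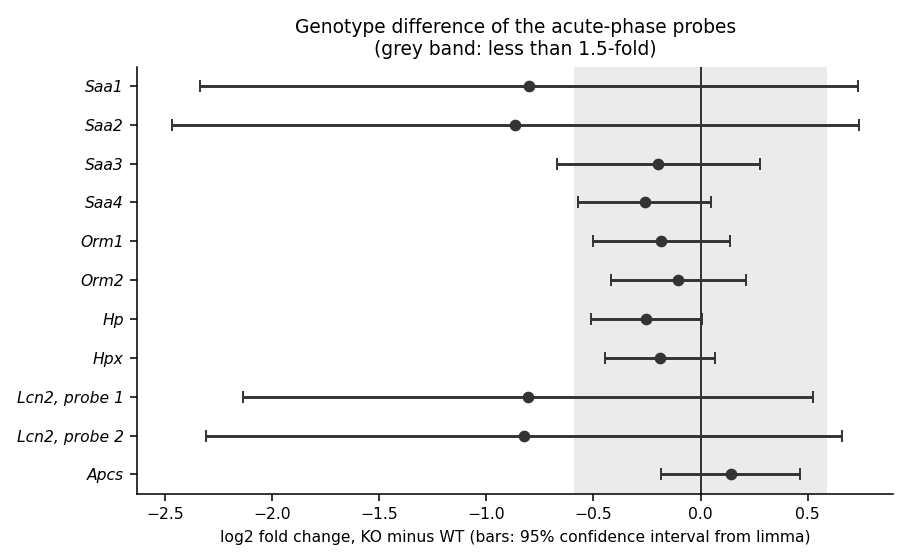
Log2 fold change, KO minus WT, of the 11 acute-phase probes with 95% CIs from limma. Every interval includes 0, and those of *Saa1*, *Saa2*, *Saa3* and *Lcn2* leave the grey band of less than 1.5-fold.

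The spread between mice of 1 genotype set *Saa1*, *Saa2* and *Lcn2* apart from the other members. The pooled standard deviation within genotypes was 1.16 for *Saa2*, 1.11 for *Saa1* and 0.96 for *Lcn2* on the log2 scale, against a median of 0.171 over all tested probes. Only 0.217% of tested probes had a larger one than *Saa2*, 0.261% than *Saa1* and 0.516% than *Lcn2*. *Orm3* stood beside them, with 0.413% of probes above it. Dim probes are noisier, so the same was read among probes whose mean signal was within 0.5 on the log2 scale. None of 811 such probes exceeded *Saa1*, none of 647 exceeded *Saa2*, and 0.418% of 3113 exceeded *Lcn2*. For the other 7 genes, between 7.41% and 15.4% of probes of like signal were more variable. Within WT the highest mouse was 8.08-fold above the lowest for *Saa2*, 7.03-fold for *Saa1* and 6.02-fold for *Lcn2*, and within KO these ranges were 4.83-fold, 4.44-fold and 3.79-fold.

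The mouse labelled WT 4 had the highest signal for 8 of the 10 genes and was above the gene mean for all 10. KO 3 had the lowest signal for 6 of the 10. KO 2, second for *Saa1*, *Saa2*, *Orm1* and *Orm2*, was above the gene mean for 6 of the 10, and below it for *Hp*, *Hpx*, *Saa4* and *Apcs*. The array of WT 4 had the fewest probes well above background, 29888, and the lowest 75th percentile of the processed signal, 261 intensity units against 277 to 309 on the other 7 arrays. Without it, 334 probes were called higher and 275 lower in KO, the most of the 8 fits that left out 1 array, against 273 and 211 with all arrays. The part of this array in the high signals of WT 4 was not tested.

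**Figure D3:**
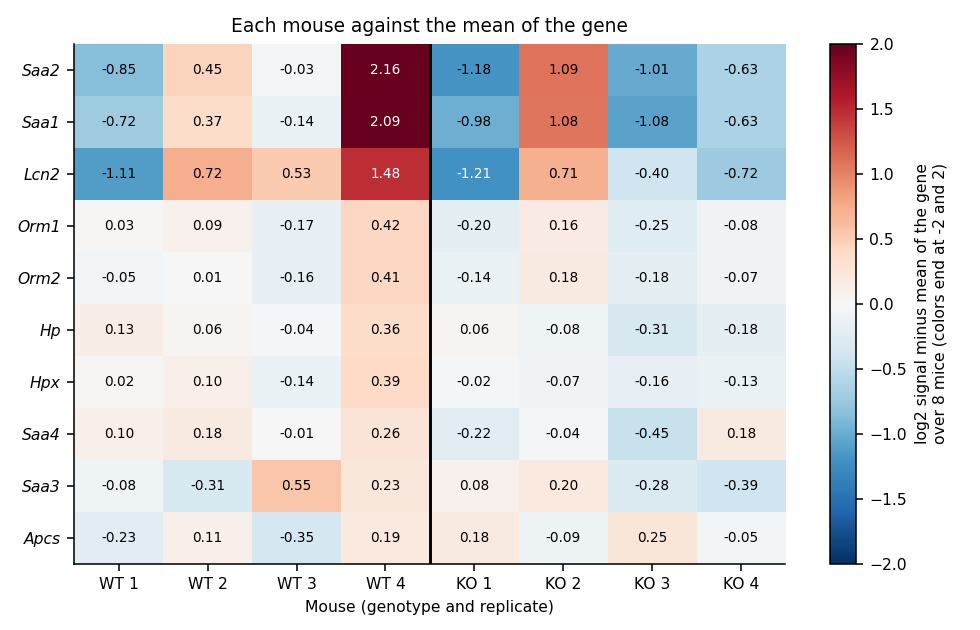
Log2 signal of each gene in each mouse minus the mean of that gene over the 8 mice (color and number). WT 4 is above the mean for all 10 genes, by 2.16 for *Saa2*, 2.09 for *Saa1* and 1.48 for *Lcn2* and by 0.19 to 0.42 for the other 7.

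The signal of each gene was set against that of *Saa2*, which had the largest standard deviation over the 8 mice (9 relations, exact permutation tests over 40320 pairings, Benjamini-Hochberg over the 9). The reference was picked by its spread in these same mice, and the p-values describe this relation within them. *Saa1* followed it most closely, with Pearson's r = 0.996 and Spearman's rho = 0.976 (n = 8 mice, exact permutation adjusted p = 4.46e-04 and 0.00357). *Lcn2* had r = 0.925 and rho = 0.905 (exact permutation p = 7.94e-04, adjusted 0.00357, for r and p = 0.00456, adjusted 0.0205, for rho). Without WT 4 and KO 2, the mice farthest from the median of *Saa2*, r was still 0.986 for *Saa1* and 0.912 for *Lcn2*. *Orm2* had r = 0.918 and rho = 0.786 (exact permutation adjusted p = 0.00781 and 0.0628), and *Orm1* had r = 0.901 and rho = 0.881 (exact permutation adjusted p = 0.00781 and 0.0217). Without the same pair of mice r fell to 0.510 for *Orm2* and 0.591 for *Orm1*, so these relations rest largely on WT 4 and KO 2. Within each genotype r was also positive for *Saa1* (r = 0.997 in WT and 0.994 in KO), *Lcn2* (0.902 and 0.928), *Orm2* (0.893 and 0.982) and *Orm1* (0.828 and 0.969), each over 4 mice that include WT 4 or KO 2, so that these values are a description and no separate support. *Hpx* had r = 0.717 and rho = 0.452 (exact permutation adjusted p = 0.0752 and 0.401), with 0.846 within WT and 0.131 within KO. The remaining genes did not pass at an adjusted p under 0.05, with r of 0.583 for *Hp*, 0.569 for *Saa4*, 0.402 for *Saa3* and 0.072 for *Apcs*. Within genotypes *Apcs* had opposite signs, r = 0.789 in WT and -0.781 in KO, each over 4 mice and given as a description.

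**Figure D4:**
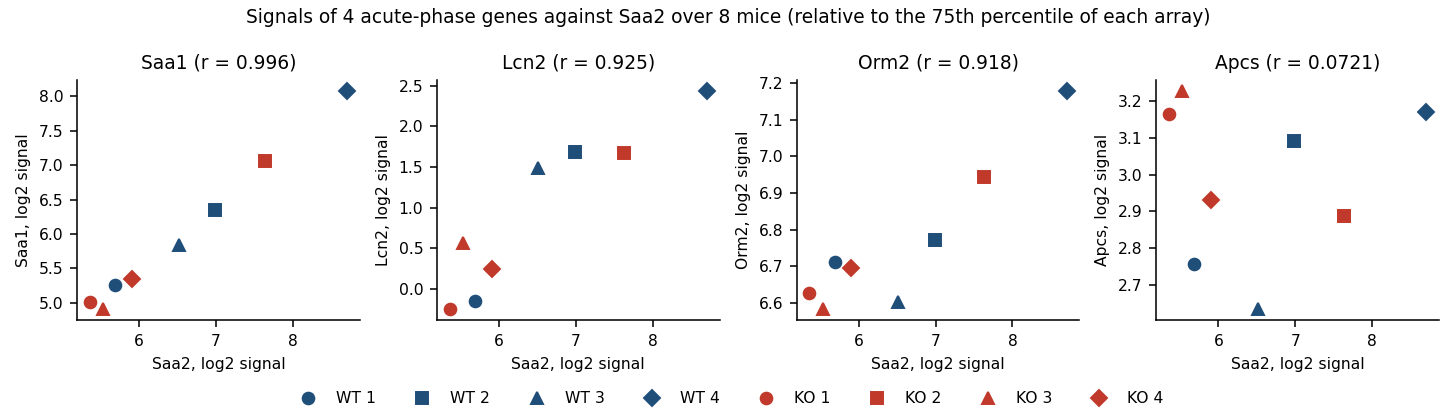
Log2 signals of *Saa1*, *Lcn2*, *Orm2* and *Apcs* against that of *Saa2*, 1 point per mouse, blue for WT and red for KO, with the 75th percentile of each array at 0. *Saa1* and *Lcn2* rise with *Saa2* across both genotypes, *Orm2* mainly through WT 4 and KO 2, and *Apcs* has a pooled r of 0.072.

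Among 13547 other genes measured above background on all arrays, those whose pattern over the 8 mice was most like that of *Saa2* were *Dcaf17* (r = 0.958), *AW549542* (0.952), *Slc46a3* (0.951), *Hrg* (0.941), which encodes the plasma protein histidine-rich glycoprotein, and *Lmnb2* (0.939). Those most like the mean of the 10 genes were *Dcaf17* (0.960), *E130308A19Rik* (0.939), *Kdm2a* (0.939), *AW549542* (0.934) and *Trafd1* (0.928). That mean is of log2 deviations not scaled to the spread of each gene, so *Saa1*, *Saa2* and *Lcn2* weigh most in it. Both sets of genes are the top of a ranking of many genes over 8 mice and are given as a description. None of these was called between the genotypes.

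Of the other genes that rise in the acute phase, 31 of 32 were tested, and 2 were called, both lower in KO, against 0.754% lower and 1.76% in either direction over all genes. They were *Mt1* and *Mt2*, the metallothioneins, which bind zinc and copper and are induced by metals and glucocorticoids as well as by cytokines. *Mt1* gave 3.83, 5.52, 4.90 and 6.09 in WT 1 to WT 4 and 2.18, 3.31, 3.15 and 3.83 in KO 1 to KO 4. KO 4 just reached the range of WT, at WT 1. The log2 fold change of *Mt1* was -1.97 (SE 0.51, limma adjusted p = 0.158, exact permutation p = 0.0571). *Mt2* gave 1.84, 4.52, 3.43 and 4.61 in WT 1 to WT 4 and 0.82, 1.85, 1.35 and 2.01 in KO 1 to KO 4, with KO 2 and KO 4 above WT 1. Its log2 fold change was -2.09 (SE 0.60, limma adjusted p = 0.193, exact permutation p = 0.0857). Both calls were close to the threshold. The adjusted p of *Mt1* rose above it without KO 1 (0.266), KO 2 (0.279), KO 3 (0.248), WT 2 (0.312), WT 3 (0.303) or WT 4 (0.205). That of *Mt2* did so without KO 1 (0.321), KO 2 (0.311), KO 3 (0.293), KO 4 (0.250), WT 2 (0.359), WT 3 (0.355) or WT 4 (0.255). With no filter on dim probes both calls were also lost (limma adjusted p = 0.354 for *Mt1* and 0.418 for *Mt2*).

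No other gene of that list was called. The median log2 fold change over the 31 genes, *Mt1* and *Mt2* included, was -0.14, against -0.03 over all genes tested, and 29 of 31 were negative, against 57.9% of all genes. The lean was not particular to this list. Negative too were 17 of 19 transcription factors, 10 of 13 hepatocyte markers and 6 of 6 red blood cell markers, lists given below. Nearer to all genes were IL-1, TNF and NF-kB signaling (14 of 25) and the glucocorticoid receptor and its targets (8 of 15). At an unadjusted p under 0.05 (limma), 7 of the 31 genes were lower and 1 was higher, 8 of 31 against 13.9% of all genes. The groups did not overlap for 6 of the 31, or 19.4%, against 9.66% of all genes. Those 6, chosen after their values were seen, were the fibrinogen chain *Fgg*, *Itih3*, the ferroxidase *Cp*, the lipopolysaccharide-binding protein *Lbp* and complement *C3*, all lower in KO, and the mannose-binding lectin *Mbl2*, higher in KO. *Itih3* had a log2 fold change of -0.34 (limma adjusted p = 0.162) and *Mbl2* had 0.24 (limma adjusted p = 0.172), both under 1.5-fold and so not called. *Lbp* had -0.45 (limma adjusted p = 0.208). *Fgb* (-0.14), *Crp* (0.08), which responds weakly in mice, and *Serpina3n* (-0.10) were not called.

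The negative acute-phase genes, whose products fall in inflammation, had 2 of 14 called, both higher in KO, against 1.01% higher over all genes. These were *Apoa4* (1.44, limma adjusted p = 0.00672), an apolipoprotein that follows lipid transport, and *Thrsp* (2.00, limma adjusted p = 0.00205), a regulator of fatty acid synthesis that is not a plasma protein. The groups did not overlap for either gene, nor for *Fetub*, lower in KO and named after its value was seen, so that 3 of 14, or 21.4%, were separated, against 9.66% of all genes. *Alb* (-0.01) and the thyroxine carrier *Ttr* (-0.07) were not called, and the median of the 14 was -0.05. This list, like the other lists here, was written with earlier results of these data known, so its counts are a description.

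Of the genes that handle hemoglobin, heme and iron, 1 of 23 was called, against 1.76% of all genes. The groups did not overlap for 5 of the 23, or 21.7%, against 9.66% of all genes. Chosen after their values were seen, these were *Hmox2*, *Fth1* and *Cp*, lower in KO, and the transferrin receptor *Tfrc* and *Hamp2*, higher in KO. *Hamp2*, the second mouse hepcidin gene, gave 4.71, 4.38, 4.92 and 3.55 in WT 1 to WT 4 and 5.29, 6.82, 7.02 and 6.65 in KO 1 to KO 4. The lowest KO mouse was above the highest WT mouse, and the log2 fold change was 2.05 (SE 0.42, limma adjusted p = 0.0974). WT 4, highest for *Saa2*, was lowest for *Hamp2*. *Hamp*, the hepcidin gene that limits iron export and rises with IL-6, gave 5.98, 6.31, 6.61 and 6.07 in WT 1 to WT 4 and 5.73, 4.54, 5.67 and 6.43 in KO 1 to KO 4. Its mean was lower in KO, with a log2 fold change of -0.65 that was not called (95% CI -1.47 to 0.17, limma adjusted p = 0.491), and its lowest mouse was KO 2. The call of *Hamp2* was lost without KO 2 (limma adjusted p = 0.223) or WT 2 (0.204), and with no filter on dim probes (0.231). *Cd163*, the scavenger receptor for haptoglobin and hemoglobin complexes (-0.23), *Lrp1*, the receptor for hemopexin and heme (-0.07), and the heme oxygenase *Hmox1* (-0.27) were not called. Among receptors and carriers of the acute-phase proteins, 0 of 17 were called, against 1.76% of all genes. At an unadjusted p under 0.05 (limma) the count was 2 of 17, against 13.9% of all genes.

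At the share of all genes called, 1.76%, lists of this size would hold few calls or none. No gene of the signals that drive the acute phase was called. This held for 17 of 20 genes of IL-6 and STAT3 signaling, 25 of 27 of IL-1, TNF and NF-kB signaling, 19 of 19 transcription factors, 15 of 15 genes of the glucocorticoid receptor and its targets and 15 of 19 chemokines and adhesion molecules that were tested (limma, with 4, 4, 1, 1 and 2 at an unadjusted p under 0.05, against 13.9% of all genes). *Il6*, *Osm* and *Lif* were below the filter on dim probes, and *Il6* was well above background on 1 WT array and on 0 KO arrays. The receptor genes *Il6ra* (-0.42) and *Il6st* (-0.08) and the transcription factor *Stat3* (-0.24) had small negative changes that were not called. *Socs3*, the feedback inhibitor that STAT3 induces, gave 1.62, 4.21, 3.28 and 2.56 in WT 1 to WT 4 and 1.66, 1.22, 3.37 and 1.51 in KO 1 to KO 4. Its order over the mice was not that of *Saa2*, since KO 2 was its lowest mouse, and its log2 fold change of -0.98 was not called (SE 0.62, limma adjusted p = 0.556). *Tnf* (-0.65, limma adjusted p = 0.315), *Il1b* (0.29), *Nfkbia* (0.05), *Cebpb* (-0.08), *Cebpd* (-0.06), *Nr3c1* (0.006) and *Fkbp5* (-0.26) were not called either.

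Markers of other liver cells are given beside these patterns. Of 15 macrophage and Kupffer cell markers tested out of 16, 1 was called, against 1.76% of all genes. *Marco*, a scavenger receptor, gave 2.49, 2.87, 3.52 and 3.20 in WT 1 to WT 4 and 1.33, 1.77, 2.25 and 1.84 in KO 1 to KO 4, with no overlap, as for 9.66% of all genes, and a log2 fold change of -1.22 (SE 0.25, limma adjusted p = 0.0981). The call was lost without KO 2 (limma adjusted p = 0.215) or WT 3 (0.212), and with no filter on dim probes (0.233). In bulk liver, fewer cells of a type and less RNA per cell cannot be told apart. *Clec4f*, which marks Kupffer cells, had a log2 fold change of -0.09 (limma adjusted p = 0.864), and the median over the 15 markers was -0.09. Over the mice the median deviation of these 15 markers from their means was -0.39, 0.14, 0.03 and 0.40 in WT 1 to WT 4 and -0.52, 0.11, 0.20 and 0.01 in KO 1 to KO 4. WT 4 was thus highest and WT 1 and KO 1 lowest, as they were for *Lcn2*, while among the KO mice KO 3 and not KO 2 was highest. The summed signal of the 15 probes, read only across mice and in units of the 75th percentile, was 128, 160, 161 and 196 in WT 1 to WT 4 and 110, 159, 171 and 155 in KO 1 to KO 4. The probe of *Cd5l* was the brightest, which is no measure of its abundance against the others. Their part in the spread of *Saa1*, *Saa2* and *Lcn2* was not tested.

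Of 14 neutrophil markers, 6 were tested and 0 were called, against 1.76% of all genes. At an unadjusted p under 0.05 (limma) the count was also 0, against 13.9% of all genes. The granule genes *Ngp*, *Ltf* and *Mpo* were below the filter, *Ngp* on all 8 arrays not well above background. *S100a8* (-0.74, limma adjusted p = 0.538) and *S100a9* (-0.89, adjusted p = 0.419) had no call, and *S100a9* gave 0.21, 0.96, -0.03 and 1.52 in WT 1 to WT 4 and -1.14, -0.20, 0.57 and -0.13 in KO 1 to KO 4. WT 4 was highest for *S100a9* too, whereas KO 2 was not. The summed signal of the 6 neutrophil probes, likewise read across mice, was 92.3, 98.1, 99.5 and 94.1 in WT 1 to WT 4 and 92.9, 89.0, 85.5 and 88.0 in KO 1 to KO 4, but it follows the bright probe of *Csf3r* almost alone and carries little of *S100a8* and *S100a9*. The 13 hepatocyte markers, 7 lymphocyte, 14 endothelial and stellate, 4 adipocyte and 6 red blood cell markers tested had 0 calls, against 1.76% of all genes. At an unadjusted p under 0.05 (limma) these lists had 1, 0, 3, 1 and 2, against 13.9% of all genes. Their medians were -0.07, -0.08, -0.04, -0.05 and -0.17. *Adipoq* was well above background on none of the arrays. In all, 223 of the 253 listed genes were tested and 6 were called, against 1.76% of all genes. Beyond the positive, negative and iron lists, the groups did not overlap for 11.8% of receptors and carriers and 16.7% of red blood cell markers. In each remaining list the share was 8% or less, against 9.66% of all genes.

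**Figure D5:**
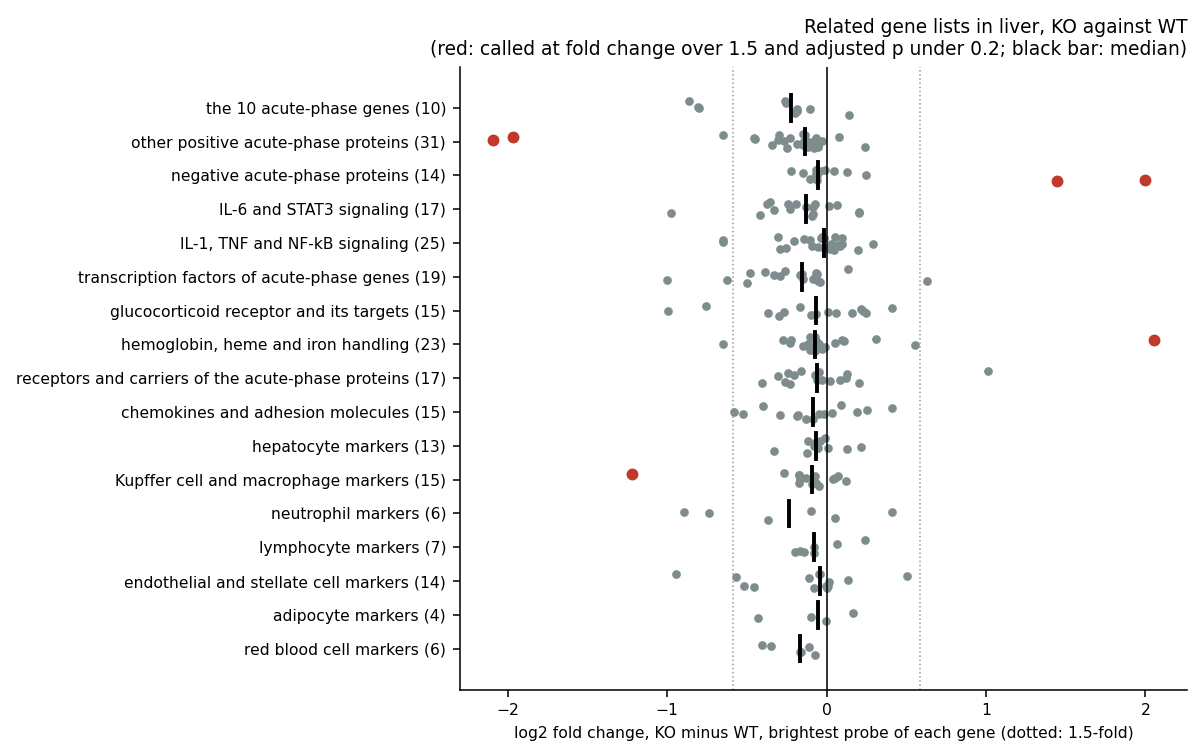
Log2 fold change, KO minus WT, of every tested gene in each list at its brightest probe (number tested in brackets, red for called genes, black bar for the median, dotted lines at 1.5-fold). The red points are *Mt1* and *Mt2* (lower), *Apoa4* and *Thrsp* (higher), *Hamp2* (higher) and *Marco* (lower).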

How the data were processed

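Total RNA of 8 livers was labelled with Cy3 and hybridized to one-color arrays. The authors deposited scanner output of Agilent Feature Extraction (version 10.7.1.1 per the file headers), in which the processed signal is an intensity after background correction. They also deposited log2 values, which agree within 0.01 with the log2 of these intensities minus the 75th percentile of the array for 100% of probes. Controls and outlier spots were dropped, the processed signals were brought to the log2 scale relative to that percentile, and repeated spots were averaged. Testing was limited to the 29069 of 56605 probes that were well above background in all 4 mice of either genotype, with between 29888 and 31892 probes well above background per array. No spot was saturated. Arrays have no read depth, so the number of arrays limits the precision. Nothing in the labels says more about how the mice were housed or paired, and p-values measure the spread between these mice.

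Genotypes came from the labels, and R 4.3.3 with limma 3.58.1 (lmFit, eBayes, two-sided) was used to compare them. The thresholds follow a figure legend of the study, where adjustment of the p is not stated. Transcript accessions were matched to symbols in a RefSeq table (GRCm38.p6), by which 32989 probes had 1 symbol, 0 had several and 23616 had none. The brightest tested probe stood for each gene. The named genes are the 10 members, the called genes of each list, a fixed set of signaling and marker genes, and the 5 genes most like *Saa2* and the 5 most like the mean of the members. Other genes named beside *Agpat3*, such as *Orm3*, *Cd5l* and *Csf3r*, were chosen after their values were seen. The members, lists, motifs and tests were chosen with earlier results of these data known. The alternatives were normexp (offset 50, on the median spot signal), quantile and median scaling, the deposited log2 values, other filters and thresholds, and outlier spots kept. Further alternatives were eBayes with trend and robust options, a replicate block, each array left out, the mean of the probes and an unpaired t-test. In a simulation of all 29069 probes with a log2 change of 1.5 in 200, 94.3% were recovered and 10.6% of calls were false. The changed probes were picked at random, and the noise was normal and independent between probes, with the SD of each probe. The share recovered therefore does not describe genes as variable as *Saa1*, *Saa2* and *Lcn2*, nor differences shared by a row or column of the slide. Samples with the same replicate number were not taken as pairs.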

Additional observations from a re-analysis of the deposited data

Results flagged for a closer look

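Among 48 genes named above, 96 groups of 4 mice were examined for a mouse far from the other 3 (Dixon's test), and 3 groups had one. Chance gives about 1 in 20 groups, and over all tested probes the share was 5.97%. *Cd163* was 1.59 in WT 4 and 1.01 to 1.08 in the other WT mice. *Serpina3n* was 3.19 in WT 1 and 3.72 to 3.81 in the other WT mice. *Dcaf17* was 0.85 in KO 2 and 0.68 to 0.70 in the other KO mice. None of the 10 acute-phase genes had such a mouse.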

How the results depend on the processing

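No acute-phase gene was called higher or lower in any alternative, and 170 of 171 values of their log2 fold changes kept their direction, the exception being *Orm2* at 0.018 without WT replicate 4. The adjusted p of *Hp*, which reached the lowest value of all, lay between 0.220 and 0.692. Leaving out 1 array in turn gave log2 fold changes between -1.30 and -0.24 for *Saa1*, -1.37 and -0.29 for *Saa2*, -1.31 and -0.45 for *Lcn2*, and -0.18 and 0.018 for *Orm2*. Over all tested probes, 273 were called higher and 211 lower. With 1 array left out these counts lay between 153 and 334 higher and between 98 and 275 lower. They were 123 higher and 132 lower with no filter on dim probes, 181 and 65 with normexp, and 208 and 126 with probes well above background on all 8 arrays. An unpaired t-test after Benjamini-Hochberg adjustment gave 166 higher and 104 lower. With limma the counts were 82 and 35 at an adjusted p under 0.05, and 555 and 635 with no minimum fold change. At the legend's thresholds with an unadjusted p the t-test gave 506 higher and 426 lower, and limma 537 and 451, in each case with 0 acute-phase genes. Of the called probes 56.4% were higher, against 73.6% with normexp. The cause was not tested. Median scaling shifted the median log2 fold change over all tested probes by -0.038, and with it 257 probes were higher and 270 lower, or 48.8% higher. The replicate number is also the column of the slide in which an array lay, 1 to 4 in both rows, with a median local background that differed by at most 1 intensity unit between same-numbered arrays. With this number as a block, 327 probes were higher and 265 lower and 0 acute-phase genes were called, and the adjusted p of *Mt1* was 0.0227, that of *Mt2* 0.0881 and that of *Marco* 0.0175. Same-numbered mice did not deviate together in every pair (r = 0.33, -0.11, 0.10 and 0.32). For WT and KO mice of different numbers r lay between -0.27 and 0.27, so 0.33 and 0.32 were the highest of all. No pairing was assumed, and a shared effect of the slide column was not tested apart from the block. Over 17 alternatives the calls of *Apoa4* and *Thrsp* held in 17, those of *Hamp2* and *Marco* in 14, that of *Mt1* in 10 and that of *Mt2* in 9. With 4 mice per genotype, 1.5-fold differences in either direction lay inside the 95% intervals of *Saa1* and *Saa2*, and a 1.5-fold fall inside those of *Saa3* and the brighter probe of *Lcn2*.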
